A study of Homo sapiens with 26 samples.

Results

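Aminoacyl-tRNA synthetases are the enzymes that join each amino acid to its transfer RNA, and 36 genes for them were followed through RNA sequencing libraries made from HCT116, a line of human colorectal carcinoma cells. The genes were chosen by name from a table of 58039 genes. 20 code for enzymes of the cytosol, whose symbols lack a closing 2, and 16 for enzymes of the mitochondrion, whose symbols end in 2. The table uses the older symbols of the cytosolic enzymes, so AARS is the gene now called AARS1. All 36 passed the filter on low counts, as did 17198 genes in all.

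The study compared HCT116 cells with sublines in which CRISPR had been used to knock out CDK8, CDK19 or both. These are the paired alternative kinases of Mediator, the complex that links transcription factors to RNA polymerase II. It also compared cells with and without JQ1, a small molecule that displaces BET bromodomain proteins from acetylated chromatin. The 26 libraries fall into 9 groups. 4 groups were single knockouts with 3 libraries each, CDK8KO-C1, CDK8KO-C2, CDK19KO-C1 and CDK19KO-C2. The double knockout, DKO, lacks both kinases per the labels, and it had 2 libraries as DKO-C1 with JQ1, 3 as DKO-C1 without it and 3 as DKO-C2. Unedited HCT116 cells had 3 libraries with JQ1 and 3 without JQ1, called control here. C1 and C2 are read as 2 sublines of a genotype. The dose and time of JQ1, the edited sites and whether replicates were separate cultures are not stated in the labels, so p-values measure only the spread between libraries of a group. The columns taken as DKO-C2 carry another clone number and were assigned by elimination. The second JQ1 library of DKO-C1 carries a number that no label has and is called replicate a.

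A synthetase recognises its amino acid and the tRNAs that carry its code, and the charged tRNA then goes to the ribosome. The mitochondrial enzymes are made from nuclear genes and imported, since mitochondria translate their own messages with a separate set of tRNAs. In the cytosol, 8 of the 20 genes listed here code for enzymes of the multisynthetase complex, which is held together by scaffold proteins, and the other 12 code for enzymes that work outside it. ATF4, the transcription factor of the amino acid and stress response, is known to drive several cytosolic synthetase genes through the C/EBP-ATF response element, a short DNA motif in their promoters.

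The fixed letters of that element, TGATGNAA, were looked for on both strands of the 300 bases around each gene start (250 before and 50 after) in RefSeq's promoters of build GRCh38.p14. 30 of the 36 genes had a promoter there, 16 cytosolic and 14 mitochondrial. DARS, LARS, VARS, YARS, AARS2 and VARS2 had no entry. The motif was present in 7 of 16 cytosolic promoters (43.8%) and in 1 of 14 mitochondrial promoters (7.14%), beside 4.46% of all 27305 genes with a promoter and 3.62% of all 35116 promoters. The windows below show each match in capitals within 30 bases, read 5′ to 3′ on the strand of the gene. They are shown because the genes that carry the match are described as a group after the comparisons.
AARS (chr16:70289675-70289704, minus strand): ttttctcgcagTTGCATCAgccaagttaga
CARS (chr11:3057407-3057436, minus strand): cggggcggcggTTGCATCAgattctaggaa
GARS (chr7:30594834-30594863, plus strand): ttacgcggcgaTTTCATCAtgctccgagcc
IARS (chr9:92293692-92293721, minus strand): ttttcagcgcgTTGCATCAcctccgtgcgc
MARS (chr12:57488053-57488082, plus strand): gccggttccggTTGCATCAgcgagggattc
NARS (chr18:57621804-57621833, minus strand): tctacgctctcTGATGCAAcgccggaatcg
TARS (chr5:33440956-33440985, plus strand): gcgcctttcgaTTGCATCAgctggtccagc
YARS2 (chr12:32756076-32756105, minus strand): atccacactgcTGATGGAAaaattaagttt
Counted from the RefSeq start, the match began at position -187 in AARS, -33 in GARS, -13 in IARS, -4 in MARS, -2 in CARS and -197 in YARS2, and at position 2 in TARS and 14 in NARS. In 5 of the 7 cytosolic promoters the match had the letters TTGCATCA, the reverse strand of the TGATGCAA that NARS carries in the direction of the gene. A second motif, CACGTG, the E-box that MYC and MAX bind, reads the same on both strands. It overlapped no TGATGNAA match here and was present in 1 of 16 cytosolic promoters (IARS, 6.25%) and in 3 of 14 mitochondrial promoters (CARS2, EARS2 and MARS2, 21.4%), against 8.77% of all genes. A match shows only that the letters are there.

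Depth was even. Gene counts per library ran from 17700864 to 19093094, and levels are given as CPM, the count scaled to the size of the library after TMM scaling, which puts the bulk of genes near no change. The epithelial markers EPCAM (239 to 413 CPM), KRT8, KRT18 and CDH1 were present in every library, while VIL1 of intestinal epithelium stayed between 0 and 0.261 CPM. Markers of leukocytes (PTPRC), endothelium (PECAM1) and hepatocytes (ALB) stayed below 0.480 CPM or at that level, and the fibroblast marker COL1A1 ran from 13.5 to 30.4 CPM, whose part in the results was not tested. CDK8 had 43.6 to 48.3 CPM in the CDK8KO libraries and 35.4 to 40.4 CPM in the DKO libraries without JQ1, against 50.1 to 52.2 CPM in control. CDK19 had 17.5 to 26.9 CPM in the CDK19KO libraries and 31.8 to 41.3 CPM in the DKO libraries without JQ1, against 24.4 to 29.9 CPM in control. A frameshift need not lower a transcript, so these levels do not check the edits. The ERCC spike-in, a set of RNAs added in a known amount, is named in the labels for control and DKO samples but was counted in all 26 libraries. Splits under ERCC scaling are therefore given beside the comparisons of genotypes and of JQ1. Results for single sublines, for subsets of the cytosolic genes and for genes outside the synthetases are given under TMM scaling only.

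Per kilobase of exon, the cytosolic genes stood above most mitochondrial ones. In control the cytosolic genes ran from 14.1 to 131 CPM per kilobase with a median of 55.9, and the mitochondrial genes from 1.33 to 50.5 with a median of 7.69. GARS, the glycyl enzyme, was the highest at 131 ± 5.15 CPM per kilobase (SD, n = 3), followed by IARS, the isoleucyl enzyme, at 94.5 ± 0.797 and NARS, the asparaginyl enzyme, at 90.7 ± 1.02. The next pair, EPRS at 84.3 ± 0.575 and TARS at 84.3 ± 1.87 CPM per kilobase, did not differ beyond their spread. Among the mitochondrial genes IARS2 was highest at 50.5 ± 0.316 CPM per kilobase, and the next, YARS2, reached 21.1 ± 2.04. The lowest were WARS2 at 2.5 ± 0.174, FARS2 at 2.17 ± 0.198 and SARS2 at 1.33 ± 0.0413 CPM per kilobase. The length used joins all annotated exons of a gene and can exceed that of a transcript, so the order depends in part on the annotation. SARS2 shares 46.2% of its exon bases with AC011455.2 on the same strand.

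**Figure D1:**
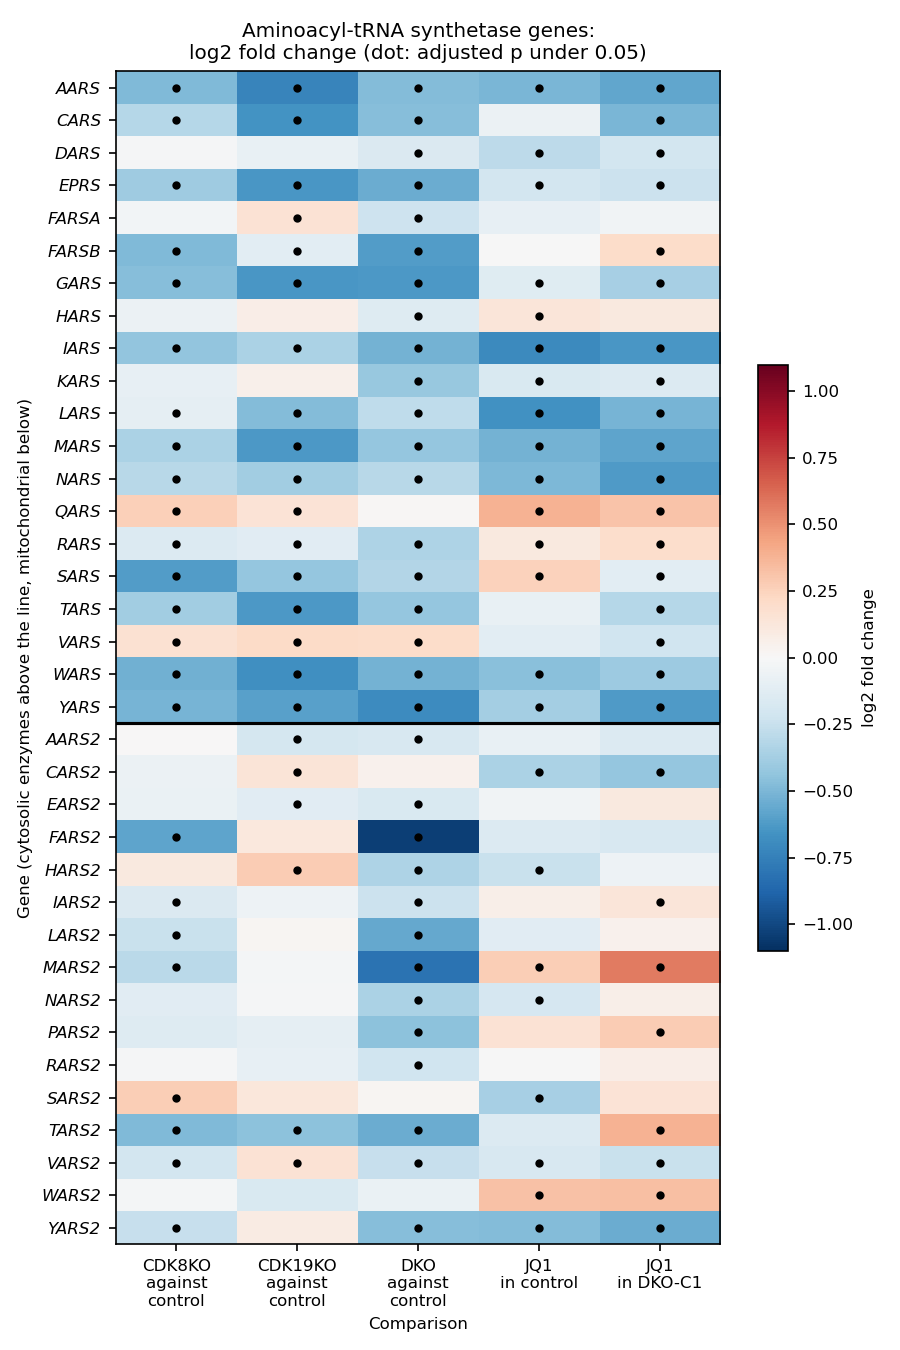
Log2 fold change of each of the 36 synthetase genes (rows, cytosolic above the line and mitochondrial below) in 5 comparisons (columns), blue for lower and red for higher in the knockout or JQ1 libraries, with a dot where the adjusted p was under 0.05. Most cytosolic rows are blue in the 3 knockout columns, QARS and VARS have red cells there, and FARS2 in DKO is the darkest cell at -1.04.

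In CDK8KO cells most cytosolic synthetase genes had lower levels than in control, and the mitochondrial genes were divided. Of the 20 cytosolic genes 14 were called lower and 2 higher, with a median log2 fold change of -0.33, and of the 16 mitochondrial genes 7 were called lower and 1 higher, with a median of -0.14. A call is an adjusted p under 0.05 in edgeR's quasi-likelihood test over all genes, and 40.5% of all genes tested were called here, 21.0% lower and 19.5% higher, with a median of -0.02. In bulk RNA, fewer cells with a transcript and less transcript per cell cannot be told apart. With ERCC factors the median of all genes shifted to -1.24, and all 20 cytosolic and all 16 mitochondrial genes were called lower, so the changes given here are relative to the median gene. Here and below, the share of all genes called with ERCC factors is not given, so the counts under that scaling are not particular to synthetases.

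SARS, the seryl enzyme (chr1:109213918-109238169, as all gene positions here in build GRCh38), had the largest cytosolic change in CDK8KO. Its 6 CDK8KO libraries ran from 138 to 171 CPM with a median of 157, against 233, 239.8 and 238 CPM in control. The ranges did not overlap, and SARS fell to 65.4% of control (log2 fold change -0.61, standard error 0.0366, adjusted p = 3.43e-16). WARS, the tryptophanyl enzyme (chr14:100333788-100376805), ran from 159 to 175 CPM with a median of 171 in CDK8KO, against 237, 245 and 253 CPM in control, again with no overlap. It fell by 0.53 on the log2 scale (standard error 0.0409, adjusted p = 3.76e-13). For WARS, 10.6% of exon bases lie over exons of other genes on the opposite strand, and the strand setting of the counting is not given. YARS, the tyrosyl enzyme (chr1:32775237-32818153), ran from 309 to 326 CPM with a median of 318 in CDK8KO, against 438, 464 and 455 CPM in control. No library of one side reached the other, and the fold change was -0.51 on the log2 scale (standard error 0.0353, adjusted p = 2.40e-14).

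The mitochondrial threonyl enzyme gene TARS2 (chr1:150487364-150507609) ran from 12.1 to 15.04 CPM with a median of 13.5 in CDK8KO, against 21.6, 16.8 and 18.3 CPM in control. It fell to 71.6% of control with no overlap (log2 fold change -0.48, standard error 0.0713, adjusted p = 9.32e-07). SARS2, the mitochondrial seryl enzyme (chr19:38915266-38930896), moved the other way, with 4.46 to 5.71 CPM and a median of 5.21 in CDK8KO, against 4.30, 4.44 and 4.17 CPM in control. Its log2 fold change of 0.27 (standard error 0.107, adjusted p = 0.0447) lies near the threshold, and the call was lost without any of 8 of the 9 libraries compared, with DESeq2 and without the filter on low counts. 46.2% of its exon bases are shared with AC011455.2 on the same strand, so its reads may not all be its own.

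The 2 cytosolic genes called higher were QARS and VARS. VARS was not called higher in CDK8KO-C2 alone, so its call rests on CDK8KO-C1. QARS, the glutaminyl enzyme, averaged 214 ± 9.61 CPM in CDK8KO (SD, n = 6) and 178 ± 2.20 CPM in control (n = 3), a log2 fold change of 0.27 (standard error 0.0386, adjusted p = 6.74e-07). VARS, the valyl enzyme, averaged 342 ± 22.7 CPM in CDK8KO and 305 ± 5.71 CPM in control, a log2 fold change of 0.16 (standard error 0.0462, adjusted p = 0.00428). DARS, FARSA, HARS and KARS were not called, with log2 fold changes of -0.01, -0.03, -0.06 and -0.09. LARS, the leucyl enzyme, was called at -0.10 with an adjusted p of 0.0333, and that call was lost without any single control library, without CDK8KO-C1 replicate 2 and without CDK8KO-C2 replicate 3.

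In CDK19KO cells the cytosolic and mitochondrial genes parted. Of the 20 cytosolic genes 14 were called lower and 3 higher, with a median log2 fold change of -0.41, while 3 of the 16 mitochondrial genes were called lower and 3 higher, with a median of -0.02. That mitochondrial split was 3 lower and 1 higher without control replicate 1, and 1 lower and 3 higher without the filter on low counts. Over all genes tested 43.0% were called, 22.0% lower and 21.0% higher, with a median of -0.02. Under ERCC scaling the median of all genes moved to -1.67, and all 20 cytosolic and all 16 mitochondrial genes were called lower. The control libraries are the same as in the CDK8KO comparison, so the results share their error.

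AARS, the alanyl enzyme (chr16:70252295-70289543), had the largest cytosolic change. Its level ran from 201 to 232 CPM with a median of 214 in CDK19KO, against 356, 355 and 358 CPM in control. It fell to 60.3% of control (log2 fold change -0.73, standard error 0.0343, adjusted p = 2.60e-19), with every CDK19KO library below every control library. WARS ran from 145 to 165 CPM with a median of 152 in CDK19KO, against 237, 245 and 253 CPM in control, with no overlap (log2 fold change -0.67, standard error 0.0409, adjusted p = 5.70e-16). CARS, the cysteinyl enzyme (chr11:3000922-3057613), ran from 78.0 to 100.4 CPM with a median of 90.6 in CDK19KO, against 138, 143 and 143 CPM in control. All CDK19KO libraries lay below control, and CARS fell to 63.5% of control (log2 fold change -0.66, standard error 0.0388, adjusted p = 2.54e-16). EPRS, which charges both glutamate and proline tRNAs, TARS, the threonyl enzyme, and MARS, the methionyl enzyme that supplies initiator tRNA, fell by 0.64, 0.63 and 0.63 on the log2 scale. 12.4% of the exon bases of MARS lie over ARHGAP9 and DDIT3 on the opposite strand, and DDIT3 fell as well.

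Among the mitochondrial genes TARS2 ran from 11.3 to 15.8 CPM with a median of 14.3 in CDK19KO, against 21.6, 16.8 and 18.3 CPM in control (log2 fold change -0.45, standard error 0.0712, adjusted p = 3.23e-06). The sides did not overlap. HARS2, the mitochondrial histidyl enzyme (chr5:140691426-140699318), ran from 57.4 to 79.2 CPM with a median of 65.5 in CDK19KO, against 55.4, 54.5 and 54.6 CPM in control. It rose by 0.28 on the log2 scale (standard error 0.0445, adjusted p = 4.26e-06), again with no overlap. Most of the spread lay between sublines, with 75.6, 79.2 and 72.1 CPM in CDK19KO-C1 and 57.4, 58.4 and 58.9 CPM in CDK19KO-C2. CDK19KO-C2 alone differed from control by 0.087, which was not called, so the call for the genotype rests on CDK19KO-C1. HARS2 lies head to head with HARS, and 11.7% of its exon bases lie over HARS on the opposite strand. AARS2 and EARS2 were called lower at -0.19 and -0.12, and CARS2 and VARS2 higher at 0.14 and 0.16. All 4 stood further from control in CDK19KO-C2 than in CDK19KO-C1, so these calls rest mainly on CDK19KO-C2. In CPM per kilobase of exon, CDK19KO-C1, CDK19KO-C2 and control had 4.71, 3.94 and 4.93 for AARS2 and 13.4, 11.8 and 13.7 for EARS2. The same groups had 5.76, 6.49 and 5.54 for CARS2 and 5.31, 6.36 and 5.22 for VARS2. 22.0% of the exon bases of VARS2 are shared with GTF2H4 on the same strand.

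The cytosolic genes called higher in CDK19KO were FARSA, QARS and VARS. In CDK19KO-C2 alone 0 cytosolic genes were called higher than control, and the largest log2 fold change was 0.09. These 3 calls therefore rest on CDK19KO-C1. FARSA codes for the alpha subunit of the phenylalanyl enzyme and averaged 174 ± 24.7 CPM in CDK19KO (SD, n = 6) and 155 ± 9.14 CPM in control, with overlapping libraries and a log2 fold change of 0.16 (adjusted p = 0.0185). FARSB codes for the beta subunit of the same enzyme and was called at -0.12 (adjusted p = 0.0194), a call lost without CDK19KO-C1 replicate 1, without CDK19KO-C2 replicate 3 and without control replicate 2 or 3. QARS and VARS had log2 fold changes of 0.15 (adjusted p = 0.00153) and 0.21 (adjusted p = 0.000373).

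**Figure D2:**
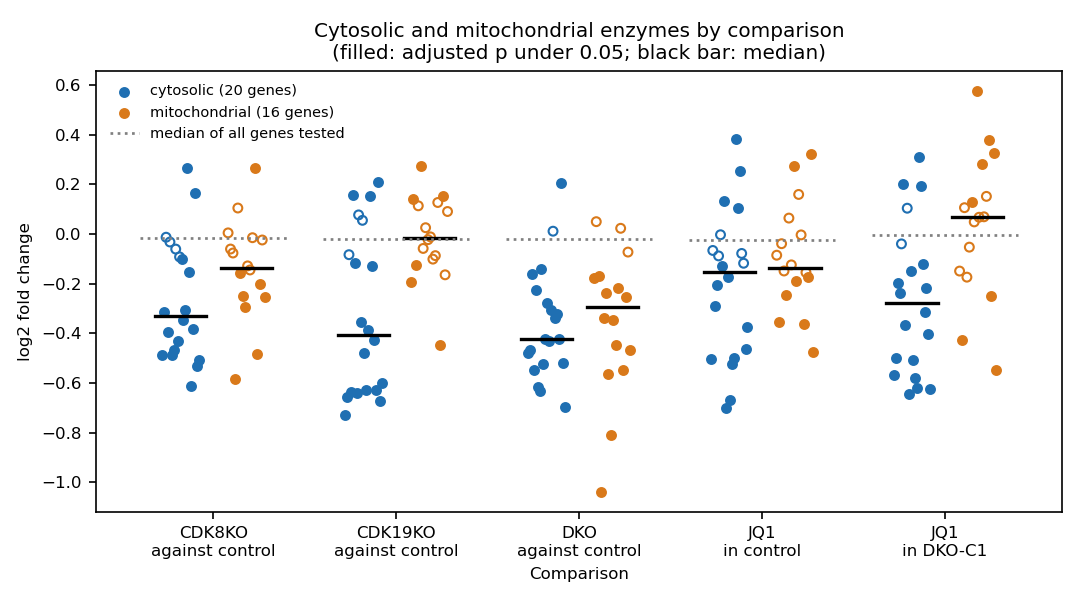
Log2 fold change (vertical axis) of the 20 cytosolic genes (blue) and the 16 mitochondrial genes (orange) in 5 comparisons, each point 1 gene, filled where the adjusted p was under 0.05, with the median of each set as a black bar and that of all genes tested as a dotted line. The cytosolic medians are -0.33, -0.41 and -0.42 in the 3 knockout comparisons and the mitochondrial medians -0.14, -0.02 and -0.29.

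In the double knockout nearly all synthetase genes of both compartments were lower. Of the 20 cytosolic genes 18 were called lower and 1 higher, with a median log2 fold change of -0.42, and of the 16 mitochondrial genes 13 were called lower and 0 higher, with a median of -0.29. Over all genes tested 61.6% were called, 32.1% lower and 29.5% higher, with a median of -0.02. Scaled by ERCC, all genes had a median of -0.92, and all 20 cytosolic and all 16 mitochondrial genes were called lower.

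YARS had the largest cytosolic change. It had 311, 312 and 305 CPM in DKO-C1 and 242, 268 and 246 CPM in DKO-C2, against 438, 464 and 455 CPM in control. It fell to 61.7% of control with no overlap (log2 fold change -0.70, standard error 0.0352, adjusted p = 1.57e-19), and DKO-C2 was the lower subline. GARS, whose single gene (chr7:30594681-30634033) yields both the cytosolic and the mitochondrial glycyl enzyme, had 404, 384 and 385 CPM in DKO-C1 and 314, 314 and 319 CPM in DKO-C2, against 519, 554 and 559 CPM in control. Its fall of 0.63 on the log2 scale (standard error 0.0353, adjusted p = 3.56e-18) was again larger in DKO-C2. FARSB (chr2:222570536-222656337) had 129, 118 and 128 CPM in DKO-C1 and 110.4, 116 and 109 CPM in DKO-C2, against 171, 186 and 187 CPM in control, with no overlap and a log2 fold change of -0.62 (standard error 0.0407, adjusted p = 4.86e-16). Its partner subunit FARSA fell by 0.22 (standard error 0.0539, adjusted p = 0.000439).

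FARS2, the mitochondrial phenylalanyl enzyme (chr6:5261044-5829192), had the largest fall of the 36 genes in DKO. It had 4.45, 5.11 and 5.75 CPM in DKO-C1 and 4.27, 5.44 and 5.59 CPM in DKO-C2, against 9.76, 11.6 and 10.1 CPM in control. Both sublines stood at about the same level and FARS2 fell to 48.7% of control (log2 fold change -1.04, standard error 0.102, adjusted p = 3.04e-11). MARS2, the mitochondrial methionyl enzyme (chr2:197705369-197708387), had 19.1, 16.1 and 17.4 CPM in DKO-C1 and 14.7, 14.8 and 14.3 CPM in DKO-C2, against 25.0, 30.3 and 28.8 CPM in control. It fell to 57.0% of control with no overlap (log2 fold change -0.81, standard error 0.0656, adjusted p = 1.67e-13). LARS2 and TARS2 fell by 0.57 and 0.55 on the log2 scale, and YARS2 and PARS2, the mitochondrial tyrosyl and prolyl enzymes, fell by 0.47 and 0.45. CARS2, SARS2 and WARS2 were not called, with log2 fold changes of 0.05, 0.02 and -0.07.

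KARS, whose single gene (chr16:75627474-75648643) also yields a cytosolic and a mitochondrial lysyl enzyme, had 208, 209 and 207 CPM in DKO-C1 and 201, 205 and 203 CPM in DKO-C2, against 267, 281 and 276 CPM in control. The log2 fold change was -0.42 (standard error 0.0383, adjusted p = 3.78e-12). In the single knockouts KARS ran from 247 to 266 CPM in CDK8KO and from 258 to 313 CPM in CDK19KO, and its log2 fold changes of -0.09 and 0.06 against control did not pass the test (adjusted p = 0.0544 and 0.258). VARS was called higher in DKO at 0.21 (standard error 0.0463, adjusted p = 0.000211), with an average of 352 ± 28.6 CPM in DKO (SD, n = 6) and 305 ± 5.71 CPM in control. QARS was not called, with 170.0 to 188 CPM in DKO against 176, 179.9 and 177 CPM in control.

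**Figure D3:**
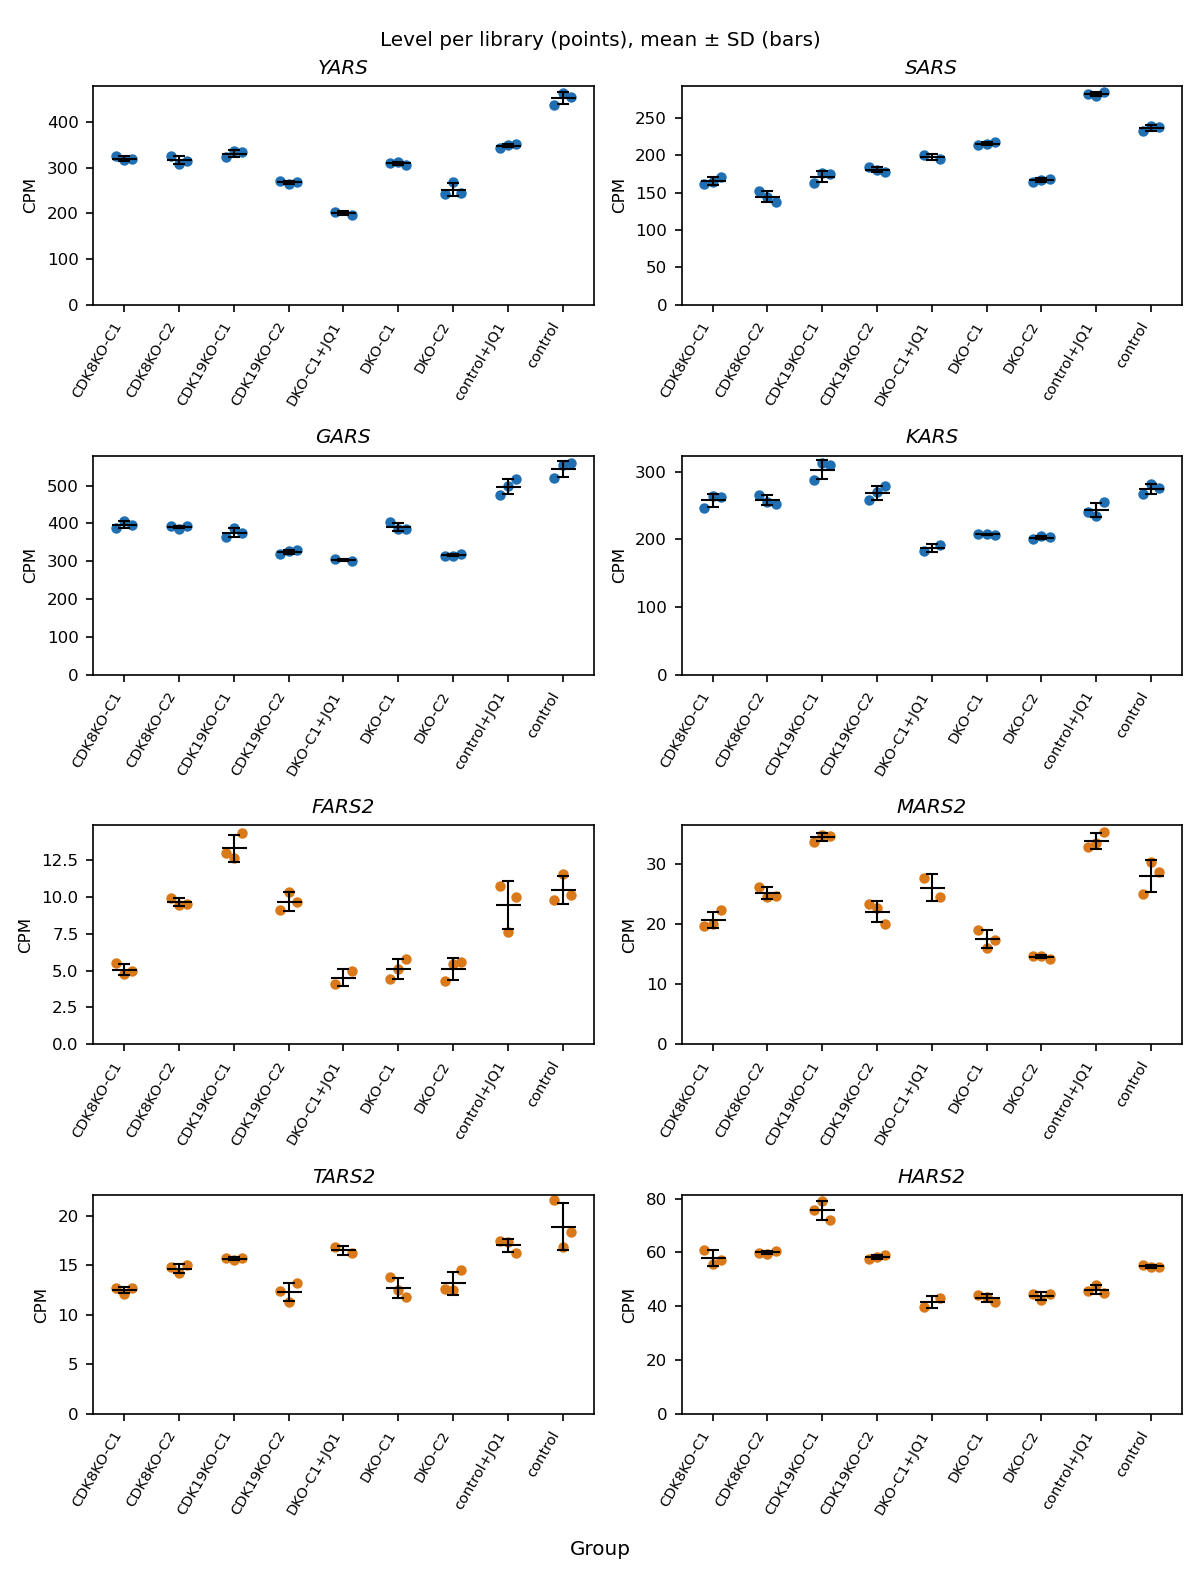
CPM of 8 synthetase genes in each library (points) of the 9 groups, with the mean and SD as bars, cytosolic genes in blue and mitochondrial genes in orange. FARS2 lies between 4.11 and 5.75 CPM in all libraries of the double knockout, HARS2 between 72.1 and 79.2 CPM in CDK19KO-C1, and MARS2 between 33.7 and 34.9 CPM in CDK19KO-C1 but between 20.1 and 23.4 CPM in CDK19KO-C2.

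Set against the single knockouts directly, the double knockout had lower mitochondrial synthetase levels. Against CDK8KO, 12 of the 16 mitochondrial genes were called lower and 1 higher (median -0.21), and 14 of the 20 cytosolic genes lower and 1 higher (median -0.14), where 61.8% of all genes tested were called, 31.2% lower and 30.6% higher. With DKO-C1 as the only double knockout subline, in the replicate block fit of numbered libraries, 6 cytosolic genes were called lower and 3 higher, with a median of -0.010. Against CDK19KO, 11 mitochondrial genes were called lower and 0 higher (median -0.26), while 8 cytosolic genes were called lower and 7 higher (median 0.00), where 70.2% of all genes were called, 34.7% lower and 35.5% higher. These pairs differ in whether the labels name a spike-in. With ERCC factors, which moved the median of all genes to 0.32 against CDK8KO and 0.77 against CDK19KO, 4 mitochondrial and 8 cytosolic genes were called higher and 0 lower against CDK8KO. Against CDK19KO the ERCC split was 11 higher and 1 lower for the mitochondrial genes and 20 higher and 0 lower for the cytosolic ones.

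Several genes, among them FARS2, MARS2, HARS2, LARS2, FARSB and KARS, were lower in the double knockout than in the single ones. For HARS2, the libraries had 44.2, 43.4 and 41.4 CPM in DKO-C1 and 44.6, 42.2 and 44.6 CPM in DKO-C2, below the CDK8KO range of 55.6 to 61.1 CPM and the CDK19KO range of 57.4 to 79.2 CPM. The log2 fold changes of HARS2 were -0.44 in DKO against CDK8KO (adjusted p = 4.38e-13) and -0.61 in DKO against CDK19KO (adjusted p = 2.10e-17). KARS fell by 0.33 against CDK8KO (adjusted p = 1.81e-11) and by 0.48 against CDK19KO (adjusted p = 4.53e-16), with no overlap in either pair. MARS2 fell by 0.52 against CDK8KO (adjusted p = 3.98e-10) and by 0.79 against CDK19KO (adjusted p = 1.99e-15). FARS2 fell by 1.15 against CDK19KO (adjusted p = 9.03e-15) and by 0.45 against CDK8KO (adjusted p = 6.21e-05), where its libraries overlapped those of CDK8KO. LARS2, the mitochondrial leucyl enzyme, ran from 40.9 to 51.0 CPM in DKO, below 54.3 to 65.3 CPM in CDK8KO and 62.8 to 79.6 CPM in CDK19KO. These genes were picked for this comparison after their values were seen. Under ERCC scaling, of the 8 falls of FARS2, MARS2, HARS2 and KARS that of FARS2 against CDK19KO was the only one still called, while KARS was called higher against CDK19KO (0.27, adjusted p = 0.012).

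With sublines averaged under TMM scaling, most called cytosolic genes were higher in CDK8KO than in CDK19KO, and most called mitochondrial genes were lower. In CDK8KO against CDK19KO, 10 cytosolic genes were called higher and 6 lower (median 0.09), while 1 mitochondrial gene was called higher and 9 lower (median -0.11), where 47.1% of all genes were called, 23.6% higher and 23.4% lower. LARS ran from 206 to 247 CPM with a median of 226 in CDK8KO and from 165 to 188 CPM with a median of 171 in CDK19KO, with no overlap (log2 fold change 0.38, standard error 0.0319, adjusted p = 2.13e-12). FARSB ran from 123 to 133 CPM with a median of 130.4 in CDK8KO and from 162 to 177 CPM with a median of 163 in CDK19KO, also with no overlap (log2 fold change -0.37, standard error 0.0339, adjusted p = 1.58e-11). FARSA, SARS, KARS, HARS and IARS were the other cytosolic genes called lower, at -0.19, -0.19, -0.15, -0.14 and -0.08, and the call of IARS was lost without CDK19KO-C1 replicate 2 or CDK8KO-C1 replicate 3. AARS2, the mitochondrial alanyl enzyme, was the mitochondrial gene called higher, with 21.3 ± 1.91 CPM in CDK8KO and 18.6 ± 2.25 CPM in CDK19KO (SD, n = 6 each), overlapping libraries and a log2 fold change of 0.20 (adjusted p = 0.00307). With ERCC factors the median of all genes shifted to 0.44, and 19 cytosolic and 11 mitochondrial genes were called higher and 0 and 1 lower. Both compartments thus went the same way under that scaling. The split was also not shared by all sublines. Summed cytosolic CPM was 4468 for CDK19KO-C2, below 5054 for CDK19KO-C1 and 4987 and 4988 for the CDK8KO sublines. The mitochondrial sums of CDK8KO-C2 (725) and CDK19KO-C2 (727) did not differ beyond their spread, with CDK8KO-C1 lower (645) and CDK19KO-C1 higher (776).

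Sublines of the same genotype differed too, so the averages above hide a second source of spread. In CDK8KO-C1 against CDK8KO-C2, 3 cytosolic genes were called higher and 2 lower, and 0 mitochondrial genes higher and 8 lower, where 21.1% of all genes were called, 11.5% higher and 9.63% lower. FARS2 had 5.48, 4.77 and 4.94 CPM in CDK8KO-C1 against 9.93, 9.45 and 9.51 CPM in CDK8KO-C2, a log2 fold change of -0.93. Against control, FARS2 changed by -1.05 in CDK8KO-C1, which was called, and by -0.12 in CDK8KO-C2, which was not, so its call for the genotype rests on 1 subline. The number of mitochondrial genes called was 4 with CDK8KO-C2 alone, against 8 with both sublines.

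In CDK19KO-C1 against CDK19KO-C2, 15 cytosolic genes were called higher and 0 lower (median 0.18), and 10 mitochondrial genes higher and 2 lower (median 0.21), where 48.0% of all genes were called, 23.8% higher and 24.2% lower. MARS2 had 33.7, 34.9 and 34.8 CPM in CDK19KO-C1 against 23.4, 22.7 and 20.1 CPM in CDK19KO-C2, a log2 fold change of 0.64. It was called higher than control in CDK19KO-C1 (0.30) and lower in CDK19KO-C2 (-0.34), and its genotype average of -0.02 was not called. In DKO-C1 against DKO-C2, 12 cytosolic genes were called higher and 0 lower (median 0.17), and 1 mitochondrial gene higher and 0 lower (median 0.03), where 9.42% of all genes were called, 3.67% higher and 5.75% lower. SARS had 214, 215 and 217 CPM in DKO-C1 against 164, 167 and 169 CPM in DKO-C2, with no overlap and a log2 fold change of 0.37.

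Each subline was also set against the same control libraries. In CDK8KO-C1, 14 cytosolic genes were called lower and 2 higher and 9 mitochondrial genes lower and 0 higher, where 39.2% of all genes were called, 19.4% lower and 19.8% higher. CDK8KO-C2 had 13 cytosolic calls lower and 1 higher and 3 mitochondrial calls lower and 1 higher, where 34.0% of all genes were called, 17.2% lower and 16.8% higher. For CDK19KO-C1 the counts were 12 lower and 5 higher in the cytosolic set and 2 lower and 5 higher in the mitochondrial set, where 46.1% of all genes were called, 24.0% lower and 22.1% higher. The cytosolic medians of these 3 sublines were -0.33, -0.35 and -0.37.

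CDK19KO-C2 had 15 cytosolic calls lower and 0 higher (median -0.45) and 6 mitochondrial calls lower and 2 higher, where 42.4% of all genes were called, 20.6% lower and 21.8% higher. In DKO-C1, 18 cytosolic genes were called lower and 1 higher (median -0.31) and 12 mitochondrial genes lower and 0 higher, where 55.9% of all genes were called, 28.9% lower and 27.0% higher. DKO-C2 also had 18 cytosolic calls lower and 1 higher (median -0.51), with 13 mitochondrial calls lower and 0 higher, where 58.9% of all genes were called, 30.5% lower and 28.4% higher. The mitochondrial medians were -0.31 in DKO-C1 and -0.28 in DKO-C2, so it was the cytosolic set that stood lower in DKO-C2.

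**Figure D4:**
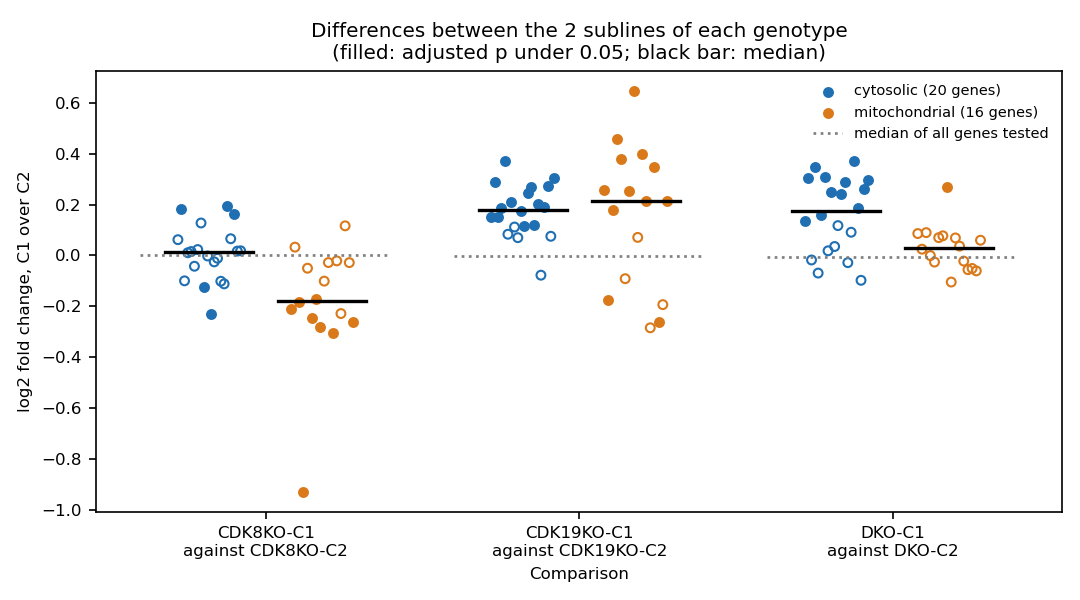
Log2 fold change of C1 over C2 within each knockout genotype (vertical axis) for the 20 cytosolic genes (blue) and the 16 mitochondrial genes (orange), filled where the adjusted p was under 0.05, with the median of each set as a black bar. FARS2 is the lowest point in CDK8KO at -0.93 and MARS2 the highest in CDK19KO at 0.64.

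JQ1 lowered a part of the cytosolic genes in control cells and raised others. With JQ1, 11 of the 20 cytosolic genes were called lower and 4 higher (median log2 fold change -0.15), and 6 of the 16 mitochondrial genes lower and 2 higher (median -0.14), where 56.0% of all genes were called, 29.1% lower and 27.0% higher, with a median of -0.02. Under ERCC scaling the median of all genes moved to -0.39, and 16 cytosolic and 12 mitochondrial genes were called lower and 0 higher in either set.

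IARS (chr9:92210207-92293756) had 407, 431 and 451 CPM in control cells with JQ1, against 693, 703 and 702 CPM in control. It fell to 61.5% of control with no overlap (log2 fold change -0.70, standard error 0.0405, adjusted p = 3.80e-17). LARS (chr5:146113038-146182660) had 146, 155 and 158 CPM with JQ1, against 242, 245 and 240.3 CPM in control, a fall to 63.0% (log2 fold change -0.67, standard error 0.0454, adjusted p = 4.28e-15). MARS (chr12:57475445-57517569) had 253, 248 and 267 CPM with JQ1, against 360.1, 371 and 372 CPM in control, a fall to 69.6% (log2 fold change -0.52, standard error 0.0408, adjusted p = 1.56e-13). All 3 are enzymes of the multisynthetase complex, and none of the JQ1 libraries reached a control library. Of the free enzymes, AARS, NARS and WARS fell by 0.50, 0.50 and 0.46 on the log2 scale, while CARS and TARS were not called at -0.07 and -0.08.

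The cytosolic genes called higher with JQ1 in control cells were QARS, SARS, HARS and RARS. QARS had 242, 222 and 232 CPM with JQ1, against 176, 179.9 and 177 CPM in control (log2 fold change 0.38, standard error 0.0442, adjusted p = 2.13e-09). SARS had 282, 279.8 and 285 CPM with JQ1, against 233, 239.8 and 238 CPM in control (0.25, standard error 0.0424, adjusted p = 3.57e-06). Neither gene had overlapping libraries. HARS and RARS, the histidyl and arginyl enzymes, rose by 0.13 (adjusted p = 0.0169) and 0.11 (adjusted p = 0.0461). Of the 4 calls higher, 2 were left without control with JQ1 replicate 1, without control replicate 1 or without the filter on low counts, and 3 with DESeq2.

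YARS2 (chr12:32727490-32755902) had 33.5, 33.1 and 31.5 CPM with JQ1, against 40.5, 49.0 and 46.8 CPM in control. It fell to 72.0% (log2 fold change -0.47, standard error 0.0696, adjusted p = 3.49e-07) with no overlap. SARS2 had 3.09, 3.59 and 3.35 CPM with JQ1, against 4.30, 4.44 and 4.17 CPM in control (-0.36, standard error 0.135, adjusted p = 0.0215), a call that was lost without control replicate 2 or JQ1 replicate 1, with DESeq2 and without the filter. CARS2 fell by 0.35 on the log2 scale, and MARS2 and WARS2 rose by 0.27 and 0.32.

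In DKO-C1 cells most called cytosolic genes were lower with JQ1, and the called mitochondrial genes were divided. Counts of calls do not compare this response with that of control, which is tested further on. With JQ1, 15 cytosolic genes were called lower and 3 higher (median -0.28), and 3 mitochondrial genes lower and 5 higher (median 0.07), where 50.3% of all genes were called, 25.4% lower and 24.9% higher, with a median of 0.00. Scaled by ERCC, all genes had a median of -0.27, and 14 cytosolic and 3 mitochondrial genes were called lower and 0 higher in either set. The JQ1 side has 2 libraries, and 5 mitochondrial genes were called without DKO-C1 with JQ1 replicate 1 and 4 without replicate a.

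IARS had 342 and 338 CPM in DKO-C1 with JQ1, against 549.7, 521 and 522 CPM in DKO-C1. It fell to 64.0% (log2 fold change -0.64, standard error 0.0461, adjusted p = 2.12e-14). YARS had 204 and 198 CPM with JQ1, against 311, 312 and 305 CPM in DKO-C1 (-0.63, standard error 0.0480, adjusted p = 1.35e-13). NARS (chr18:57600656-57622213) had 219.8 and 212 CPM with JQ1, against 352, 318 and 325 CPM in DKO-C1 (-0.62, standard error 0.0596, adjusted p = 4.18e-11). In these 3 genes both JQ1 libraries lay below all DKO-C1 libraries. FARSB, QARS and RARS were called higher, at 0.20, 0.31 and 0.19 on the log2 scale.

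MARS2 had 27.7 and 24.6 CPM in DKO-C1 with JQ1, against 19.1, 16.1 and 17.4 CPM in DKO-C1. It rose to 149% of DKO-C1 (log2 fold change 0.58, standard error 0.0855, adjusted p = 5.20e-07), and one of its JQ1 libraries lay inside the control range of 25.0 to 30.3 CPM. YARS2 had 22.4 and 23.5 CPM with JQ1, against 32.1, 34.5 and 33.9 CPM in DKO-C1 (-0.55, standard error 0.0840, adjusted p = 9.26e-07). Neither overlapped. CARS2 and VARS2 fell by 0.43 and 0.25, while TARS2, WARS2, PARS2 and IARS2 rose by 0.38, 0.33, 0.28 and 0.13. SARS was called at -0.12 (adjusted p = 0.0362), and that call was lost without any 1 of the 5 libraries compared, while KARS, called at -0.15 (adjusted p = 0.0146), lost its call without JQ1 replicate 1.

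The 2 JQ1 responses were compared in the same model. Of the cytosolic genes 5 responded lower in DKO-C1 than in control and 0 higher, and of the mitochondrial genes 1 higher and 0 lower, where 8.59% of all genes were called, 4.70% lower and 3.90% higher. CARS had 81.7 and 79.1 CPM in DKO-C1 with JQ1 against 117, 114 and 111 CPM in DKO-C1, and 135, 133 and 137 CPM in control with JQ1 against 138, 143 and 143 CPM in control. Its response differed by -0.43 on the log2 scale (standard error 0.0690, adjusted p = 2.23e-05). SARS differed by -0.37 (adjusted p = 7.62e-05), with opposite signs in the 2 backgrounds, though its call in DKO-C1 was lost without any 1 library. With ERCC factors both signs of SARS were negative, at -0.11 in control and -0.38 in DKO-C1, and neither was called. YARS, GARS and TARS differed by -0.25, -0.24 and -0.24 (adjusted p = 0.00753, 0.0113 and 0.0433). TARS2 had 16.8 and 16.2 CPM in DKO-C1 with JQ1 against 13.8, 12.5 and 11.8 CPM in DKO-C1, and 17.5, 17.3 and 16.2 CPM in control with JQ1 against 21.6, 16.8 and 18.3 CPM in control. Its response differed by 0.53 (standard error 0.125, adjusted p = 0.00387). None of these 6 differences was called with ERCC factors, and 2 cytosolic genes were called without DKO-C1 with JQ1 replicate a.

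Within the cytosolic set, the free enzymes had lower median fold changes than those of the complex in the single knockouts. In CDK8KO, 9 of 12 free enzymes were called lower and 1 higher (median -0.42), and 5 of 8 complex enzymes lower and 1 higher (median -0.13). In CDK19KO, 9 free enzymes were called lower and 2 higher (median -0.51), and 5 complex enzymes lower and 1 higher (median -0.24). In DKO the sets were closer, with 11 free enzymes lower and 1 higher (median -0.44) and 7 complex enzymes lower and 0 higher (median -0.38). In the same comparisons 21.0%, 22.0% and 32.1% of all genes tested were called lower, and 19.5%, 21.0% and 29.5% higher. With JQ1 in control cells the complex enzymes had the lower median, -0.25 against -0.10 for the free enzymes, and in DKO-C1 the free enzymes did, -0.34 against -0.22. The difference between the sets was not tested. By enzyme class, which divides synthetases by the fold of the catalytic domain, class I and class II genes had medians of -0.18 and -0.14 in CDK8KO, -0.11 and -0.10 in CDK19KO and -0.31 and -0.35 in DKO.

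The 7 cytosolic genes with the TGATGNAA match (AARS, CARS, GARS, IARS, MARS, NARS and TARS) were lower in the knockouts, in comparisons that use the same control libraries. In CDK8KO 7 were called lower (median -0.38), in CDK19KO 7 (median -0.63) and in DKO 7 (median -0.47). The share of all genes tested called lower was 21.0% in CDK8KO, 22.0% in CDK19KO and 32.1% in DKO. Of the 9 cytosolic genes whose promoters had no match, 5 were called lower and 1 higher in CDK8KO (median -0.15), 5 lower and 2 higher in CDK19KO (median -0.12) and 8 lower and 0 higher in DKO (median -0.34). With JQ1, the 7 genes had 5 calls lower and 0 higher in control (median -0.50) and 7 lower and 0 higher in DKO-C1 (median -0.57), while the 9 genes had 3 lower and 4 higher in control (median -0.00) and 4 lower and 3 higher in DKO-C1 (median -0.04). With JQ1, 29.1% of all genes tested were called lower and 27.0% higher in control, and 25.4% lower and 24.9% higher in DKO-C1. SARS, WARS and EPRS, with no match in the window, fell by 0.61, 0.53 and 0.39 in CDK8KO. DARS, LARS, VARS and YARS, with no promoter entry, had 2 calls lower and 1 higher in each single knockout and 3 lower and 1 higher in DKO. YARS2, the mitochondrial gene with the match, was called lower in CDK8KO and DKO but not in CDK19KO. The difference between genes with and without the match was not tested.

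ATF4 itself was lower in the same comparisons. It averaged 369 ± 18.9 CPM in CDK8KO, 345 ± 29.2 CPM in CDK19KO and 337 ± 34.4 CPM in DKO (SD, n = 6 each), against 511 ± 21.6 CPM in control (n = 3). The log2 fold changes were -0.47, -0.57 and -0.60 (adjusted p = 4.78e-11, 2.99e-13 and 5.73e-15). With JQ1 it averaged 238 ± 5.26 CPM in DKO-C1 against 364 ± 14.5 CPM without it, and 374 ± 12.1 CPM in control cells with JQ1 against 511 ± 21.6 CPM without it (log2 fold changes -0.62 and -0.45). Of 12 tested ATF4 target genes outside the synthetases, 11 were called lower and 1 higher in CDK8KO (median -0.79), 10 lower and 1 higher in CDK19KO (median -1.18) and 9 lower and 2 higher in DKO (median -0.63). With JQ1 the counts were 9 lower and 2 higher in control and 10 lower and 2 higher in DKO-C1. All genes tested had 21.0%, 22.0% and 32.1% called lower in CDK8KO, CDK19KO and DKO. With JQ1 these shares were 29.1% in control and 25.4% in DKO-C1.

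Among these targets, CHAC1, which degrades glutathione, averaged 7.84 ± 1.37 CPM in CDK8KO, 6.23 ± 2.03 CPM in CDK19KO and 7.89 ± 2.04 CPM in DKO, against 24.7 ± 2.43 CPM in control (log2 fold changes -1.67, -2.05 and -1.68). DDIT4, an inhibitor of mTORC1 signalling, fell by 1.31 in CDK8KO and by 2.07 in CDK19KO on the log2 scale. ASNS, asparagine synthetase, averaged 2.15 ± 0.618 CPM in DKO against 7.50 ± 0.330 CPM in control (log2 fold change -1.83), but 18.5 ± 1.51 CPM in control cells with JQ1, a rise of 1.31. Of the 9 genes listed as ATF4 and its regulators or partners, 6 were called lower and 1 higher in CDK8KO, 5 lower and 1 higher in CDK19KO and 5 lower and 2 higher in DKO. In either direction 40.5%, 43.0% and 61.6% of all genes tested were called there. DDIT3, the stress factor CHOP, fell by 1.46, 1.33 and 1.26 in the 3 knockouts, and CEBPB, another C/EBP factor, fell by 0.58 in CDK8KO. NUPR1, a stress-induced chromatin protein, was near the floor, at 0.0917 ± 0.0572 CPM in CDK19KO and 1.73 ± 0.933 CPM in DKO against 0.536 ± 0.0944 CPM in control. In DKO-C1 against DKO-C2, 9 of the 12 targets were called higher and 0 lower (median 0.51). In that comparison 12 cytosolic synthetase genes and 3.67% of all genes tested were called higher. Whether ATF4 has a part in any of these differences was not tested.

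Genes that work beside the synthetases moved in part with them. For scale, 21.0% of all genes tested were called lower in CDK8KO, 22.0% in CDK19KO and 32.1% in DKO. XPOT, the exportin that carries tRNA out of the nucleus, averaged 210 ± 20.9 CPM in CDK8KO and 191 ± 15.05 CPM in CDK19KO (SD, n = 6), against 302 ± 2.41 CPM in control (log2 fold changes -0.53 and -0.67). All 4 genes of tRNA export and proofreading were called lower in CDK8KO and in DKO, and 3 of 4 in CDK19KO. With C1 and C2 taken alone, 3 and 3 were called lower in CDK8KO, 3 and 2 in CDK19KO and 2 and 4 in DKO. DTD1, which removes D-amino acids from tRNA, averaged 14.2 ± 1.44 CPM in DKO against 41.9 ± 1.37 CPM in control, a fall of 1.56 (adjusted p = 1.21e-22). AARSD1, which clears mischarged alanyl tRNA, fell by 0.39, 0.43 and 0.48 in CDK8KO, CDK19KO and DKO. Of the 3 scaffold genes of the multisynthetase complex, 2 were called lower in CDK8KO, 0 in CDK19KO and 2 in DKO. These counts differed by subline. CDK8KO-C1 and CDK8KO-C2 alone had 3 and 1 called lower, CDK19KO-C1 and CDK19KO-C2 0 and 2, and DKO-C1 and DKO-C2 1 and 2. EEF1E1 (also AIMP3) fell by 0.42 in CDK8KO and by 0.61 in DKO, and AIMP1 by 0.20 and 0.19.

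The 4 genes of the mitochondrial charging partners were called lower in DKO (median -0.46). They are QRSL1, GATB and GATC, whose complex turns glutamate on tRNA into glutamine, and MTFMT, which formylates the initiator methionine. GATB fell by 0.55 and GATC by 0.48. The share of all genes tested called lower was 32.1% in DKO, 21.0% in CDK8KO and 22.0% in CDK19KO, where 21.0% were called higher. In CDK8KO 2 of the 4 were called lower, GATB by 0.35 and QRSL1 by 0.20. In CDK19KO 2 were called higher and 1 lower, with MTFMT at 0.20, GATB at 0.14 and GATC at -0.19. The calls higher rest on CDK19KO-C1, which alone had 2 higher and 0 lower. CDK19KO-C2 alone had 0 higher and 1 lower. Of the mitochondrial elongation factors, which bring charged tRNA to the mitochondrial ribosome and move it along, 3 of 4 were called lower in DKO, TUFM by 0.59 and TSFM by 0.47. GFM2 fell by 0.33 in CDK8KO and by 0.35 in CDK19KO, while GFM1 fell by 0.18 in CDK8KO and rose by 0.28 in CDK19KO.

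Of the 4 cytosolic elongation factor genes tested, 2 rose and 1 fell in the double knockout. There 29.5% of all genes tested were called higher and 32.1% lower. EEF1A1, which delivers charged tRNA to the cytosolic ribosome, averaged 6928 ± 327 CPM in DKO against 2571 ± 11.6 CPM in control, a log2 fold change of 1.43 (standard error 0.0379, adjusted p = 1.24e-28). EEF1B2, its exchange factor, rose by 0.52 in DKO and fell by 0.35 in CDK8KO and by 0.25 in CDK19KO. EEF2, which moves the ribosome on, fell by 0.27 in DKO and rose by 0.26 in CDK19KO. EEF1G was listed at 0 in every library and VLDLR, an ATF4 target, had too few counts, so neither was tested. EEF1A1 has many processed copies in the genome, and how the counting treated reads shared with them is not given.

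Summed over each compartment, the cytosolic genes had 3998 ± 28.7 CPM in DKO-C1 with JQ1 (SD, n = 2), the lowest of the 9 groups, and 6150.1 ± 108 CPM in control (n = 3), the highest. The other groups lay between, at 4987 ± 42.3 CPM in CDK8KO-C1, 4988 ± 21.2 in CDK8KO-C2, 5054 ± 93.7 in CDK19KO-C1, 4468 ± 22.9 in CDK19KO-C2, 4968 ± 60.3 in DKO-C1, 4386 ± 4.51 in DKO-C2 and 5193 ± 164 in control with JQ1. CDK8KO-C1, CDK8KO-C2, CDK19KO-C1 and DKO-C1 did not differ beyond their spread, nor did CDK19KO-C1 and control with JQ1. The mitochondrial genes had 645 ± 6.58 CPM in CDK8KO-C1, 725 ± 5.27 in CDK8KO-C2, 776 ± 13.2 in CDK19KO-C1, 727 ± 2.41 in CDK19KO-C2, 631 ± 2.19 in DKO-C1 with JQ1, 622 ± 8.66 in DKO-C1, 603 ± 13.7 in DKO-C2, 712 ± 14.4 in control with JQ1 and 748 ± 15.4 in control. The cytosolic sum was 8.22 ± 0.0596 times the mitochondrial sum in control, and this ratio was lowest in CDK19KO-C2, at 6.15 ± 0.0457.

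**Figure D5:**
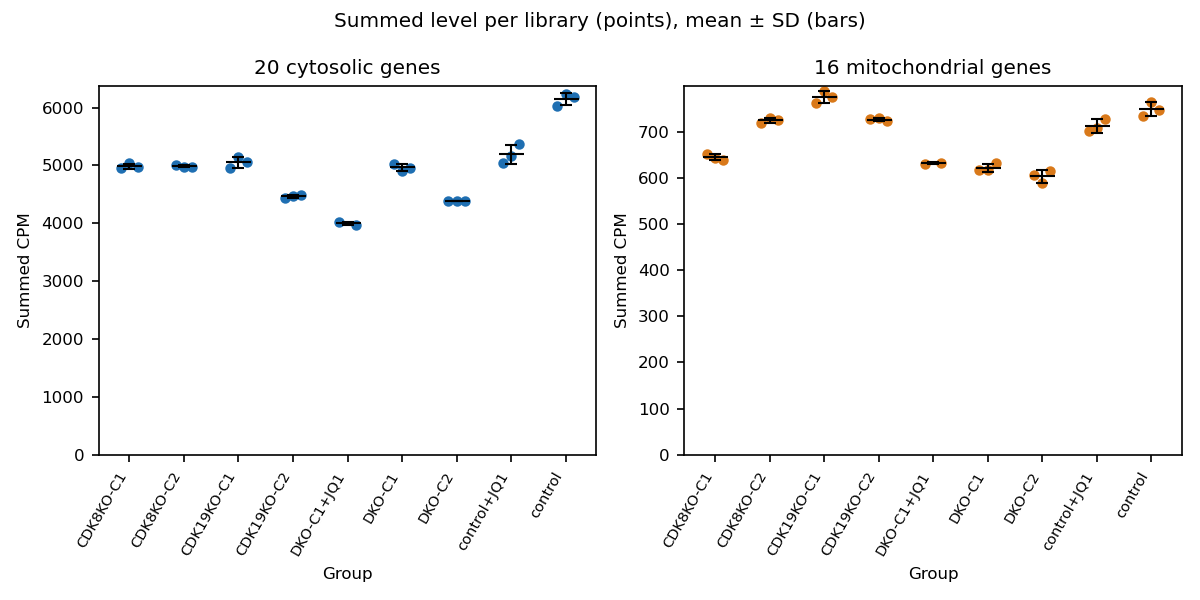
Summed CPM of the 20 cytosolic genes (left) and the 16 mitochondrial genes (right) in each library (points) of the 9 groups, with the mean and SD as bars. Control is the highest group on the left at 6150.1 CPM, and CDK19KO-C1 is the highest on the right at 776 CPM.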

How the data were processed

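Total RNA was sequenced in 26 libraries of HCT116 cells and knockout sublines as paired reads of 100 bases, per the labels. The submitters' processing notes name STAR 2.5.2, featureCounts, Subread 1.6.3 and the build hg38. The deposited values are raw counts for 58039 genes and 92 ERCC transcripts. The sources used here give neither the strand setting nor the annotation release. 22 columns were matched to 1 sample and 4 to a group.

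Tests were run in edgeR 4.0.16 under R 4.3.3, as 1 quasi-likelihood model over the 9 groups with TMM factors from 0.956 to 1.02. Settings were filterByExpr (minimum count 10, minimum total 15), two-sided, Benjamini-Hochberg adjusted over 17198 genes, called under 0.05. The fit was tested on simulated data. Knockouts are the mean of 2 sublines. CPM use TMM effective sizes. The 25 pairs of libraries within groups all differed by more than counting noise (chi-square over its degrees of freedom 1.38 to 11.87). Overlap and lengths come from GENCODE's annotation of GRCh38.

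Alternatives were DESeq2 1.42.0, its size factors, ERCC factors, other filters, a replicate block, only the libraries compared, single sublines and each library left out. The members and lists were chosen with earlier results of these data known. Values per library are given for the 3 cytosolic and 2 mitochondrial genes with the largest called change without overlap in each of 5 comparisons, and for GARS and KARS. Genes called against most of their compartment are named, as are up to 2 called genes of each partner list per knockout. Other genes were named after their values were seen.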

Additional observations from a re-analysis of the deposited data

Results flagged for a closer look

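In 6 synthetase genes the JQ1 response in DKO-C1 differed from that in control by a test of the difference itself, edgeR's quasi-likelihood test with Benjamini-Hochberg adjustment. The response was lower in DKO-C1 for CARS (-0.43 on the log2 scale), SARS (-0.37), YARS (-0.25), GARS (-0.24) and TARS (-0.24), and higher for TARS2 (0.53). Of all genes tested 8.59% were called, 4.70% lower and 3.90% higher. None of the 6 was called with ERCC factors, and with 1 library left out the cytosolic calls ran from 2 to 5. For MARS2 the 2 CDK19KO sublines were called in opposite directions against control, and CDK19KO-C1 minus CDK19KO-C2 was 0.64 (adjusted p = 2.43e-09).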

How the results depend on the processing

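Counts of called genes stayed within 1.5 times of the reported ones under DESeq2, its size factors, other filters and only the libraries compared. With ERCC factors the mitochondrial genes called were 16 (reported 8) in CDK8KO, 16 (6) in CDK19KO, 3 (8) for JQ1 in DKO-C1 and 4 (13) in DKO against CDK8KO, with 8 (15) cytosolic genes there. For the difference of the JQ1 responses they were 0 cytosolic (5) and 0 mitochondrial (1). With CDK8KO-C2 alone, 4 mitochondrial genes were called (8). The replicate numbers did not pair libraries: over 70 pairs with a shared number the correlation of deviations ran from -0.0629 to 0.0747. The replicate block, fitted on the 22 numbered libraries, called 3 cytosolic genes (5) for the difference of the JQ1 responses and 9 (15) in DKO against CDK8KO, where DKO is DKO-C1 alone. On those libraries, called members without and with the block numbered 19 and 19 in DKO against CDK8KO and 23 and 20 for JQ1 in DKO-C1. The alternatives for DKO against single knockouts were added after seeing the data.

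Without each library in turn, cytosolic and mitochondrial calls ran from 15 to 17 and 7 to 8 in CDK8KO, 16 to 17 and 4 to 6 in CDK19KO, 18 to 19 and 12 to 13 in DKO, 15 to 16 and 9 to 10 in CDK8KO against CDK19KO, 11 to 15 and 6 to 8 for JQ1 in control, 15 to 17 and 4 to 8 for JQ1 in DKO-C1, 2 to 5 and 1 to 2 for the difference of responses, 14 to 15 and 11 to 13 in DKO against CDK8KO, and 15 to 18 and 10 to 11 in DKO against CDK19KO. The mitochondrial count of 2 came without control replicate 1 or DKO-C1 replicate 1. A lone JQ1 library is assumed to vary like the other groups.

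With ERCC factors the cytosolic genes called higher in the knockouts (QARS, VARS and FARSA) were all called lower, and in DKO against CDK8KO the cytosolic median was 0.18, against the reported -0.14. Among the genes given with values per library, these log2 values changed sign: in CDK8KO, HARS2 -1.11 and SARS2 -0.95. In CDK19KO they were KARS -1.60, FARS2 -1.55, HARS2 -1.37, SARS2 -1.53 and YARS2 -1.57, and in DKO SARS2 -0.88. In CDK8KO against CDK19KO they were FARSB 0.066, IARS 0.36, KARS 0.28, SARS 0.25, HARS2 0.26, MARS2 0.16, TARS2 0.39 and YARS2 0.087. For JQ1 in control they were SARS -0.11 and MARS2 -0.10, for JQ1 in DKO-C1 FARSB -0.063, and in DKO against CDK19KO HARS2 0.13 and KARS 0.27. In single sublines, LARS was 0.014 in CDK8KO-C2 and MARS2 0.30 in CDK19KO-C1. The cause was not tested. SARS2, the gene with the lowest level, had a standard error of 0.107 in CDK8KO, against 0.0366 for SARS.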
